A study of Mus musculus with 2 samples.

Results

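The 10 microRNA genes at the start of the imprinted Mir379 to Mir410 cluster on mouse chromosome 12 are described here: Mir379, Mir411, Mir380, Mir323, Mir758, Mir329, Mir494, Mir543, Mir495 and Mir667. The rule that defines them is a list of names and uses no measured value, but the list was chosen with earlier results of these data known. Position alone does not define the set, since 7 other annotated microRNA genes lie between the 10. All 10 were found among the 2202 microRNA genes counted. Female mice of the F1 hybrid strain B6CASTF1/J, aged 25 days and with no treatment named in the labels, gave the left cerebral cortex studied. A single group of 2 libraries of RNA under 30 nt was made, so no condition was set against another. The labels number the animals separately but give both the same donor record, and p-values between libraries cover counting error only.

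MicroRNAs are cut from hairpin precursors, and each mature RNA guides repression of messenger RNAs through its seed, the bases near its 5′ end. The Mir379 to Mir410 cluster is a long run of such hairpins transcribed from the maternal chromosome, downstream of the noncoding genes Meg3 and Rian, and is best known from neurons. Its transcription in neurons responds to activity through the factor Mef2, and several of its products act in dendrite growth. Reads from the 5p and 3p arms were counted together, so each level belongs to a gene and not to either mature RNA.

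Mature sequences of the genes are shown because the genes fall into groups of related arms. All are from the mouse RefSeq table on GRCm38.p6, written 5′ to 3′ with the seed (bases 2 to 8) in capitals. The hairpin sequence and position of each of the 10 genes were identical in RefSeq and in the annotation used for counting. The 3p arms of Mir379 and Mir411 carried the same seed, those of Mir379, Mir380 and Mir758 shared the 8 bases UGGUCCAC, and those of Mir543 and Mir495 shared their last 12 bases.
mmu-miR-379-3p: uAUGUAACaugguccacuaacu
mmu-miR-411-3p: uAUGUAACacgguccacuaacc
mmu-miR-380-3p: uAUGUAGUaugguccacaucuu
mmu-miR-758-3p: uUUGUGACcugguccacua
mmu-miR-543-3p: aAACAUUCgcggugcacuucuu
mmu-miR-495-3p: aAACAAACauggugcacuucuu
mmu-miR-494-3p: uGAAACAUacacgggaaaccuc
mmu-miR-323-3p: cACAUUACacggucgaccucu
mmu-miR-329-3p: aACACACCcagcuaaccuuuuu
mmu-miR-667-3p: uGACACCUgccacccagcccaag

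The 5p arms of the first genes of the cluster are shown for the same reason. Those of Mir379 and Mir411 had different seeds, and those of Mir380 and Mir758 shared 10 bases at positions shifted by 1, which gave them different seeds.
mmu-miR-379-5p: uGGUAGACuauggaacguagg
mmu-miR-411-5p: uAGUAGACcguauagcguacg
mmu-miR-380-5p: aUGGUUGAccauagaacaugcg
mmu-miR-758-5p: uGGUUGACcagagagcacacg

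The libraries held 3017058 own-strand microRNA gene counts in replicate 1 and 3209361 in replicate 2. About 3 counts is the 95% upper limit that counting error sets for a count of 0. In the 2 libraries 3 counts equal 0.994 and 0.935 CPM (counts scaled to a common microRNA gene total). Outside the gene counts, 40.3% and 39.0% of all reads were placed at several loci. Every gene of each marker list was detected, those for tissues other than cortex included. The 8 neuronal genes listed summed to 213761 CPM on average, and Mir139 alone averaged 148859 CPM. Sums were 36322 CPM for 3 astrocyte genes, 4641 CPM for 2 oligodendrocyte genes and 2559 CPM for 4 microglial and immune genes. Further sums were 12289 CPM for 3 endothelial and mural genes, 253 CPM for 2 pancreas and pituitary genes and 45.2 CPM for 3 striated muscle genes. They were 122 CPM for 3 epithelial genes, 63.2 CPM for 3 red blood cell genes and 48.9 CPM for the liver gene Mir122. Not on the neuronal list, the neural genes Mir124a-1, Mir9-1, Mir9-2 and Mir9-3 averaged 1.90, 10.1, 1.92 and 71.1 CPM. These levels leave out any of their reads placed at several loci, so they do not show that the mature RNAs were scarce. How many such reads there were was not tested. Lists differ in size, so their sums do not compare cell types. Less of a microRNA per cell and fewer cells that make it cannot be told apart in such tissue.

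Every one of the 10 genes gave reads in both libraries, and their levels spanned 371-fold. All 10 had at least 10 own-strand counts in each library, where 17.9% of the 2202 genes did, and 4 of them averaged at least 1000 CPM, where 4.50% of all genes did. Of the 2202 genes, 1460 had 0 counts in both libraries. Nearby genes came closer to the 10. Of the 33 other microRNA genes from Mir379 to Mir410, 69.7% had such counts and 30.3% averaged at least 1000 CPM. Of the 22 from the start of Meg3 to before Mir379, 72.7% and 40.9% did. Together the 10 genes supplied 1.36% of counts in replicate 1 (exact 95% interval 1.351 to 1.378) and 1.34% in replicate 2 (1.330 to 1.355). The mean was 1.35% ± 0.0155 (SD, n = 2). Mir411 and Mir379 led, with 75.9% of the summed counts of the 10 genes in replicate 1 and 64.2% in replicate 2. Because each read is a whole mature RNA, levels were not divided by gene length.

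Mir379, the first hairpin of the cluster (chr12:109709060-109709125, plus strand), had 16213 counts (5374 CPM) in replicate 1 and 10966 counts (3417 CPM) in replicate 2. Mir411, which shares its 3p seed (chr12:109710175-109710256, plus strand), had 15050 counts (4988 CPM) and 16709 counts (5206 CPM). Mir379 was thus the higher of the pair in replicate 1 and the lower in replicate 2, and their ranges overlapped. Their hairpins are shown because they carry most of the signal, with both mature arms in capitals.
Mir379: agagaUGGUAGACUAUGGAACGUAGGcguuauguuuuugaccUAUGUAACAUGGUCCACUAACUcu
Mir411: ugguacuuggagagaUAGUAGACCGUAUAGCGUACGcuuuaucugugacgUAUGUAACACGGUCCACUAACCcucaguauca

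On average Mir411 reached 5097 ± 154 CPM and ranked 37th of the 2202 genes, and Mir379 reached 4395 ± 1384 CPM and ranked 44th (SD, n = 2). Counting positions from 1 at the 5′ end, miR-379-3p and miR-411-3p differed by U10C and U22C, with the base of miR-379-3p first. With 22 bases each, the 3p arms thus differ in 2 bases, both outside the seed.

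Mir323, a brain-enriched microRNA gene (chr12:109712508-109712593, plus strand), had 3037 counts (1007 CPM) in replicate 1 and 6695 counts (2086 CPM) in replicate 2. Mir667 (chr12:109720006-109720097, plus strand), the last of the 10 along the chromosome, had 2805 counts (930 CPM) and 4497 counts (1401 CPM). Both were higher in replicate 2, and the libraries' ranges for these genes overlapped. They averaged 1546 ± 763 CPM and 1165 ± 333 CPM and ranked 86th and 96th.

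**Figure D1:**
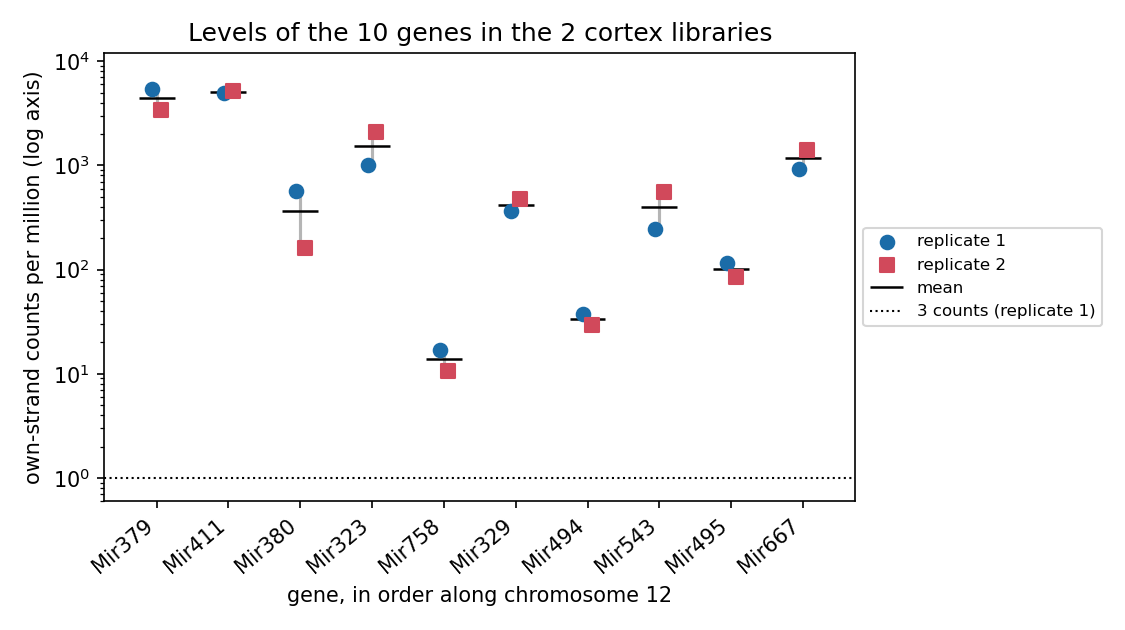
Own-strand CPM on a log axis for the 10 genes in chromosome order, with circles for replicate 1, squares for replicate 2, a bar for the mean and a dotted line at 3 counts. Mir411 and Mir379 are highest at means of 5097 and 4395 CPM, Mir758 is lowest at 13.7 CPM, and the widest gap between libraries is that of Mir380 (563 and 163 CPM).

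Mir329, whose mature RNA takes part in activity-dependent dendrite growth in cultured neurons (chr12:109713481-109713577, plus strand), had 1112 counts (369 CPM) in replicate 1 and 1513 counts (471 CPM) in replicate 2. Mir543, known for repression of N-cadherin during neurogenesis (chr12:109717258-109717333, plus strand), had 738 counts (245 CPM) and 1787 counts (557 CPM). Mir380, whose 5p RNA is known as a repressor of p53 (chr12:109711803-109711863, plus strand), had 1700 counts (563 CPM) and 522 counts (163 CPM). These 3 genes could not be ordered by level: their means lay between 363 and 420.0 CPM and the values of the libraries overlapped. In replicate 1 Mir380 was the highest of them, and in replicate 2 the lowest.

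Mir495, which has been studied as a repressor of the neurotrophin Bdnf (chr12:109718754-109718816, plus strand), had 350 counts (116 CPM) in replicate 1 and 272 counts (84.8 CPM) in replicate 2. Mir494 (chr12:109715318-109715402, plus strand), had 112 counts (37.1 CPM) and 94 counts (29.3 CPM). Mir758, studied for its repression of the cholesterol transporter Abca1 (chr12:109712810-109712890, plus strand), had 51 counts (16.9 CPM) and 34 counts (10.6 CPM). These 3 genes were the lowest in both libraries, in the same order, and the libraries of each did not overlap those of its neighbours in level. They averaged 100.4 ± 22.1, 33.2 ± 5.54 and 13.7 ± 4.46 CPM, and together held 1.25% and 0.928% of the counts of the 10 genes. Mir758 ranked 305th of all counted genes.

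Ordered by mean level, the 10 genes fell into steps. Of the 9 pairs of neighbours in that order, 4 overlapped between libraries: Mir411 with Mir379, Mir323 with Mir667, Mir329 with Mir543 and Mir543 with Mir380. The steps that did not overlap were 2.84-fold from Mir379 to Mir323, 2.77-fold from Mir667 to Mir329, 3.62-fold from Mir380 to Mir495, 3.02-fold from Mir495 to Mir494 and 2.42-fold from Mir494 to Mir758. The 5 highest genes held 92.8% of the counts of the 10 in replicate 1 and 93.7% in replicate 2.

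Levels did not run in order along the chromosome. The 10 hairpins span 11038 nt with gaps of 216 to 1855 nt (median 1189), and 7 other annotated microRNA genes lie between them. Mir323 and Mir758 are separated by the shortest gap, 216 nt, yet averaged 1546 and 13.7 CPM. Among the genes between the 10 hairpins, Mir299a had 365 and 842 counts in replicates 1 and 2, Mir679 156 and 167, Mir1193 126 and 221 and Mir666 3256 and 3515. Mir1197 had 9 and 6 counts. The minus-strand genes Mir299b and Gm25750, opposite Mir299a and Mir380, had 0 on their own strand.

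Within the whole interval from Mir379 to Mir410 the 10 genes are 23.3% of the 43 counted microRNA genes and held 19.0% of its counts in replicate 1 (exact 95% interval 18.88 to 19.21) and 20.7% in replicate 2 (20.55 to 20.90). The interval itself supplied 7.16% and 6.48% of microRNA gene counts. The 5 highest of the other 33 genes were Mir487b at 16832 ± 4881 CPM, Mir382 at 11267 ± 904 CPM, Mir541 at 9841 ± 1572 CPM, Mir485 at 2992 ± 787 CPM and Mir409 at 2500 ± 711 CPM (SD, n = 2). By mean level Mir411 and Mir379 therefore stood 4th and 5th of the 43. Of the other 33 genes, 23 were detected and 7 had 0 counts in both libraries, 5 of which are the minus-strand entries.

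**Figure D2:**
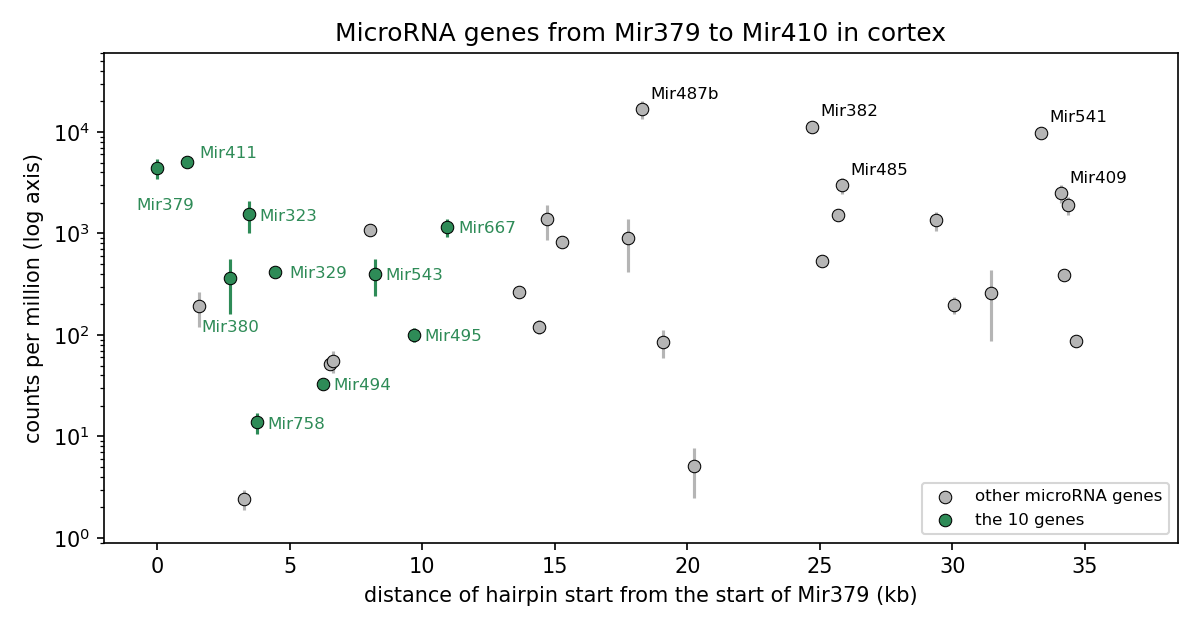
Mean CPM on a log axis against the distance of each hairpin start from that of Mir379 in kb, with a vertical line from the lower to the higher library, for the 35 of 43 microRNA genes with reads in both libraries. The 10 genes (green) fill the first 11 kb with levels from 13.7 to 5097 CPM, and the highest genes of the interval, Mir487b, Mir382 and Mir541, lie farther along.

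Reads over the 10 genes came from 1 strand. The opposite strand had 0 counts for each of them in both libraries, and 9 of the 10 overlapped no other annotated gene. The nearest longer genes were the noncoding B830012L14Rik, 6472 nt before Mir379, and Mirg, 9666 nt after Mir667, both on the plus strand, so in this annotation the 10 hairpins lie outside the exons and introns of longer genes. Mir380 alone had an overlapping gene, the provisional minus-strand microRNA entry Gm25750. In the deposited column that ignores strand, Mir380 had 0 counts, against 1700 and 522 on its own strand, while the other 9 genes kept the same counts. Whether reads over genes of both strands were set aside there as ambiguous was not tested. The same loss of counts in that column touched 4 of the other 33 genes of the interval.

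The libraries differed little in the sum of the 10 genes and more in its parts. On a scale set by TMM (a trimmed mean of ratios over all genes), the sum was lower in replicate 2 by 0.25 on the log2 scale, and it was lower by 0.023 with library totals. Between the libraries the single genes stood 1.09-fold to 4.06-fold apart, and 6 of them at least 1.5-fold. TMM moves the median ratio of all genes by -0.23 on the log2 scale relative to library totals, and directions here are relative to it.

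Mir380 differed most, 4.06-fold higher in replicate 1 (log2 ratio of replicate 2 over replicate 1 -2.02, 95% counting interval -2.17 to -1.88). Mir379 was 1.84-fold higher in replicate 1 (-0.88, -0.92 to -0.85) and Mir495 1.60-fold (-0.68, -0.92 to -0.45). The other way, Mir543 was 1.94-fold higher in replicate 2 (0.96, 0.83 to 1.08), Mir323 1.77-fold (0.82, 0.76 to 0.88) and Mir667 1.29-fold (0.36, 0.29 to 0.43). Mir411 had a log2 ratio of -0.17 (-0.20 to -0.14), which turned to 0.062 with library totals. Consecutive among the 10 genes along the chromosome, Mir380 and Mir323 thus differed between the same libraries in opposite directions, with TMM and with library totals.

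An exact two-sided binomial test per gene, adjusted by Benjamini-Hochberg over the 496 genes whose counts summed to at least 10, called all 10 genes, 6 as higher in replicate 1 and 4 in replicate 2. With library totals 8 were called, 3 and 5. Over all compared genes the share called was 56.5%, made up of 30.6% toward replicate 1 and 25.8% toward replicate 2 (152 and 128 genes, or 102 and 180 with library totals). Among the 306 genes with at least as many counts as Mir758, the lowest of the 10, it was 77.5%, a subset chosen after the values were seen. The test compares libraries, and at these depths small ratios pass it. The weakest calls were those of Mir329 (log2 ratio 0.13, adjusted p = 0.0471), Mir494 (-0.57, adjusted p = 0.00992) and Mir758 (-0.90, adjusted p = 0.00892). Mir329 missed the threshold with DESeq2 size factors (adjusted p = 0.105), and Mir494 and Mir758 missed it with library totals (adjusted p = 0.145 and 0.0652).

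Spread between the libraries was read against that of all genes. Over the 8 of the 10 genes that averaged 50 CPM or more, the median absolute log2 ratio was 0.75 with TMM and 0.62 with library totals. With TMM it was 0.42 over all 231 such genes and 0.45 over the 23 other such genes of the interval. Over the 14 such genes from the start of Meg3 to before Mir379 it was 0.31. Mir380 was the 1 gene of those 8 over 2-fold apart (12.5%), where 13.9% of all 231 were. Of the other interval genes 20 of 25 compared were called, 10 in each direction, and of the genes from the start of Meg3 to before Mir379 14 of 16, 10 toward replicate 1 and 4 toward replicate 2. The coefficient of variation beyond counting error over all 496 genes, from edgeR's common dispersion, was 37.0%. Although edgeR names it biological, differences between animals and between library preparations cannot be told apart in it.

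**Figure D3:**
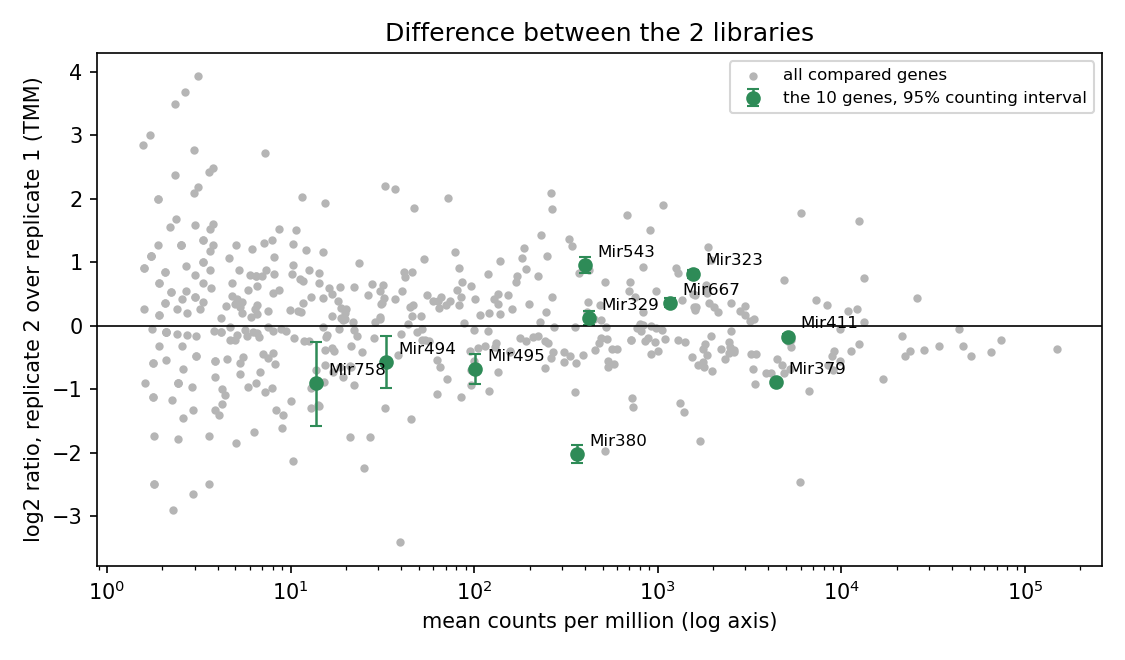
Log2 ratio of replicate 2 over replicate 1 after TMM scaling against mean CPM on a log axis, for 493 compared genes with reads in both libraries (grey) and the 10 genes (green, with 95% counting intervals). Mir380 lies lowest of the 10 at -2.02, and Mir543 and Mir323 lie highest at 0.96 and 0.82.

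The 10 hairpins were more alike than pairs with detected hairpins outside the cluster, and pairs with other genes of the cluster lay between. In global alignments of the 45 pairs the median identity was 53.8% of alignment columns, and 12 pairs (26.7%) reached 60%. Against the 362 detected microRNA genes outside the interval, the same alignment gave a median of 46.6%, and 1 of 3620 pairs reached 60%. Against the 23 other detected genes of the interval the median was 51.2%, and 41 of 230 pairs (17.8%) reached 60%. The level of 60% and both sets of other genes were chosen after the values were seen, pairs share genes, and no test was made. The most alike pairs were Mir411 with Mir758 (73.8%), Mir323 with Mir494 (71.9%), Mir379 with Mir380 (71.2%), Mir494 with Mir543 (68.2%) and Mir543 with Mir495 (67.9%).

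**Figure D4:**
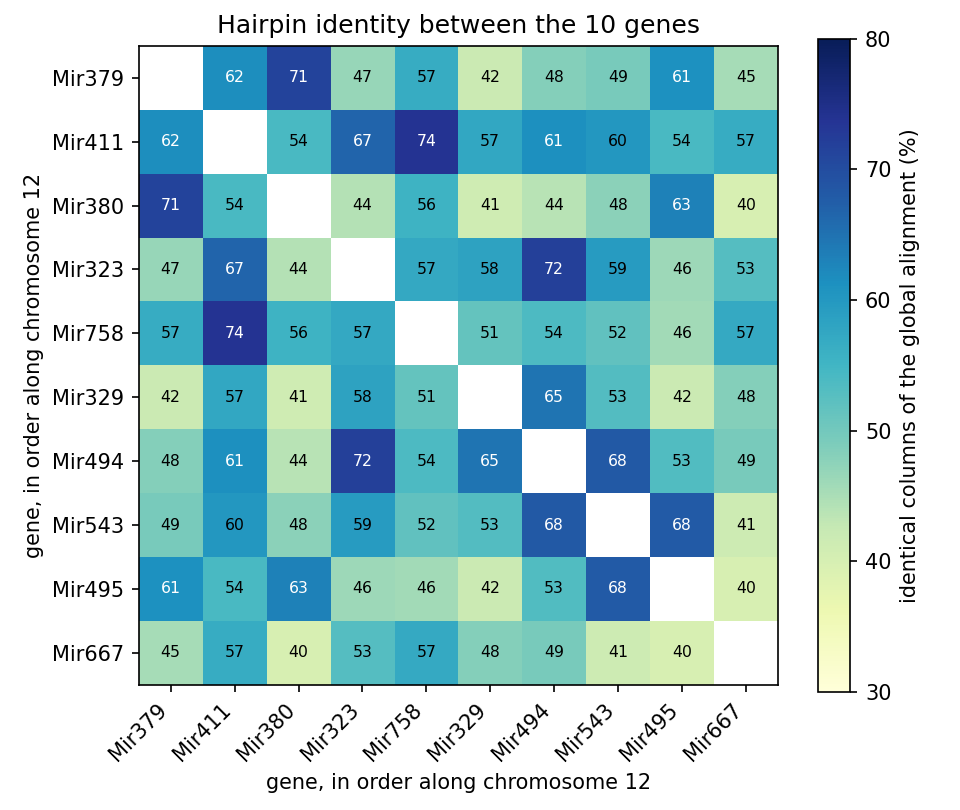
Percent of identical columns in the global alignment of each pair of hairpins, with genes in chromosome order on both axes. Mir411 with Mir758 is highest at 73.8%, and Mir495 with Mir667 is lowest at 39.8%.

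Of the 12 pairs at 60% or more, 6 differed between the libraries in the same direction with TMM and 6 in opposite directions. With 6 of the 10 genes higher in replicate 1 and 4 in replicate 2, pairs of both kinds must occur. The split over all 45 pairs was not taken, so these counts show no link with identity. Mir411, which is in several of the 12 pairs, turned its direction with library totals. Levels in such pairs were near in some and far apart in others. Mir379 and Mir411 (61.6%) averaged 4395 and 5097 CPM. Mir411 averaged 5097 CPM and Mir758 13.7 CPM, and Mir543 and Mir495 averaged 401 and 100.4 CPM. Mir543 was higher in replicate 2 and Mir495 in replicate 1, while Mir379 and Mir380 were both higher in replicate 1. A stretch of at least 20 nt was shared with another counted hairpin by 2 of the 10 genes, Mir411 and Mir758, which share 21 nt with each other. Of those 21 bases, 12 lie inside miR-411-3p and 9 inside miR-758-3p, so no mature arm is shared whole. The other 8 genes had longest shared stretches of 10 to 15 nt, and reads placed at several loci were not counted for any gene.

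The 20 mature RNAs carried 19 different seeds, and the pair that matched was miR-379-3p with miR-411-3p. With 4 positions different, U6A, U7A, G9A and C10U (miR-543-3p first, from its 5′ end), miR-543-3p and miR-495-3p did not share a seed. The 8 bases UGGUCCAC occur in miR-379-3p, miR-380-3p and miR-758-3p and in 4 of 1738 mouse mature RNAs of the table (0.230%), searched on the RNA strand alone; the fourth is miR-412-3p of the same cluster. This overlaps the 8 bases GGUCCACU, which occur in miR-379-3p, miR-411-3p, miR-758-3p and miR-412-3p, also 0.230%. Both were picked from the 10 genes' own sequences.

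Outside the 10 genes, seeds of bases 2 to 8 were shared with 7 mature RNAs, and the 4 of their genes with reads averaged under 100 CPM. The seed of miR-329-3p recurs in miR-362-3p, whose gene Mir362 on chromosome X had 48 and 91 counts (22.1 ± 8.80 CPM), against 420.0 ± 72.7 CPM for Mir329 (SD, n = 2). The RNA is shown to compare with miR-329-3p above.
mmu-miR-362-3p: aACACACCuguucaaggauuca

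Of the other 6 seed matches, 3 lay in the cluster itself. That of miR-379-5p recurs in miR-1193-5p, whose gene Mir1193 averaged 55.3 ± 19.2 CPM against 4395 ± 1384 CPM for Mir379. The seed of miR-494-5p recurs in miR-410-5p, and Mir410 averaged 87.6 ± 11.8 CPM against 33.2 ± 5.54 CPM for Mir494. For miR-758-5p the match was miR-1197-5p, with 9 and 6 counts for Mir1197. Mir7229 and Mir1192, which match miR-411-5p and miR-495-3p, had 0 counts in both libraries, and miR-12200-5p, which also matches miR-495-3p, was not matched to a counted gene. With the shorter seed of bases 2 to 7, the mature RNAs of the 10 genes with a match, each other included, rose from 8 to 14 of 20, and their genes from 6 to 9. Among those added matches, miR-382-5p shares its shorter seed with miR-495-5p, and its gene Mir382 averaged 11267 ± 904 CPM against 100.4 ± 22.1 CPM for Mir495 (SD, n = 2). Likewise miR-377-5p and miR-672-5p match miR-329-5p, and Mir377 and Mir672 averaged 260.4 ± 246 and 534 ± 108 CPM.

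High and low genes overlapped in base composition and predicted folding. GC content ran from 34.9% in Mir495 to 62.0% in Mir667, with a median of 43.0% where the 395 detected genes had 52.2%. Predicted minimum free energies (RNAfold) ran from -39.9 kcal/mol for Mir667 to -22.8 kcal/mol for Mir495, with hairpins of 92 and 63 nt. Per base they ran from -0.46 kcal/mol for Mir380 to -0.36 kcal/mol for Mir495. Mir379 and Mir411, the highest genes, had 40.9% and 45.1% GC and -27.1 and -29.8 kcal/mol, and Mir758, the lowest, had 51.9% GC and -31.6 kcal/mol. These values are given as descriptions over 10 genes, with no test.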

How the data were processed

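The deposited files hold read counts per microRNA gene in 2 libraries, made by the authors on mm10 with annotation M21, per the file headers of the accompanying lists. Which aligner and counter they used is not given in the sources used here. Columns are unnamed; their roles (either, own and opposite strand) were read from the values, and own-strand counts were used. All 2202 identifiers matched GENCODE M21. The 4 read classes that name no gene were left out of library sizes.

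CPM used the own-strand sum. Libraries were compared by a two-sided exact binomial test on TMM-scaled sizes (edgeR 4.0.16), adjusted by Benjamini-Hochberg across all genes with at least 10 counts in total, with 0.05 as the threshold. With 1 group, no quasi-likelihood contrast existed. The code of the comparison was run on simulated counts with counting error alone and known changes in some genes. That setting holds no spread between replicates beyond counting, so it cannot show how far the calls hold in these libraries. Intervals cover counting error alone and treat each read as independent. Amplified reads are not independent molecules, so the intervals can be too narrow. Alignments used Biopython 1.88 and folding ViennaRNA 2.7.2, with R 4.3.3, DESeq2 1.42.0, Python 3.11.15 and scipy 1.17.1.

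Named genes were all 10 members, the 5 highest other genes and those between members in the interval, and genes sharing a seed or a stretch of 20 nt with a member. Outside that rule, Mir122 and Mir139 come from the marker lists. Mir412, by its mature RNA, Mir124a-1, the Mir9 genes and the genes matching only bases 2 to 7 were named after their values were seen. With 2 libraries giving 1 ratio per gene, none was named for likeness of pattern. Members and lists were chosen with earlier results of these data known. Alternatives were library totals, DESeq2 size factors, either-strand counts, other minimums, equal depth, other denominators, stretches and seed lengths, and leaving out each replicate.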

Additional observations from a re-analysis of the deposited data

Results flagged for a closer look

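Opposite-strand counts enter no comparison between libraries. Gm25750, the minus-strand entry over Mir380, had 1700 opposite-strand counts in replicate 1 and 522 in replicate 2. Both are above 3 counts, about the 95% upper limit for a count of 0. These opposite-strand counts equal the own-strand counts of Mir380 in each library, and Gm25750 had 0 counts on its own strand.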

How the results depend on the processing

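Of 80 recomputed values, 71 stayed the same by the rule for their kind. That rule was the same direction and side of the threshold, a move of less than 1 SD or, for counts of genes, within 1.5 times. With 2 libraries, levels and shares without either replicate lie within 1 SD by construction. All 10 genes also stay detected without either replicate, since detection required both. Such values are no evidence of stability. Counts of genes moved within the limit of 1.5 times in some cases. In both libraries 8 of the 10 genes had at least 100 counts, and genes sharing a seed went from 6 to 9 with bases 2 to 7. The summed share of the 10 genes, 1.35%, became 1.41% in the either-strand column and 0.474% with all reads as the denominator. The 2 genes sharing a hairpin stretch at 20 nt became 0 at 22 nt. The log2 ratio of Mir411 reversed to 0.062 with library totals. Of the 10 genes called between libraries, 8 to 10 were called across the alternatives, with 9 for DESeq2 size factors and 8 for library totals, where 3 were higher in replicate 1 and 5 in replicate 2. The either-strand total is smaller and lacks Mir380, and the denominator of all reads is larger; other causes were not tested. Without a minimum on counts 9 were called, and at 100 counts in total Mir758 was left out and the other 9 were called. No paired analysis was possible because there is a single group. Mir758 and Mir494, with 34 to 112 counts per library, have the widest counting intervals.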
